A study of Mus musculus with 26 samples.

Results

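The comparison described here sets regulatory T cells (Treg) sorted in bulk against the conventional CD4+ T cells (Tconv) of the same reporter strain. It rests on 4 of the 26 RNA-seq libraries of the count table, 2 titled WT Treg and 2 titled WT Tconv, chosen by their titles, and it covers every gene of the count table. Both groups were sorted from the spleen and lymph nodes of mice of the C57BL6/J strain carrying Foxp3-IRES-hCD2 (the genotype label), in which a human CD2 reporter is made from the Foxp3 locus. WT Treg were CD4+hCD2+ cells and WT Tconv were CD4+hCD2- cells, sorted without culture, and age, sex and treatment were not given in the sources used here. The cell type label of the WT Tconv libraries reads Treg with the hCD2- gate, against their title, and they were grouped by title. Another 4 groups set beside them were sorted from mice of the same genotype label. Central Treg (cTreg) were CD4+hCD2+ and naive conventional cells (Tnaive) CD4+hCD2-, both CCR7hi, CD62Lhi and CD44lo. Effector Treg (eTreg) were CD4+hCD2+ and effector conventional cells (Teff) CD4+hCD2-, both CCR7lo and CD62Llo. The bulk gates have no such restriction, so each bulk library can hold resting and effector cells together. The spread behind the p-values comes from all 26 libraries, which also include Treg without Batf (BATFKO and the conditional BATFcKO YFP) and Treg with a mutated Foxp3 (Foxp3R397W and Foxp3KO), with the WT Treg that serve as their controls.

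Treg are the CD4+ T cells that restrain immune responses, and Foxp3 is the transcription factor that defines them. They express the high-affinity interleukin-2 (IL-2) receptor without making IL-2 themselves, carry inhibitory receptors such as CTLA-4, and can turn extracellular ATP into adenosine or activate latent TGF-beta. Resting Treg recirculate through lymphoid organs much as naive T cells do, while effector Treg have seen antigen and resemble activated conventional cells in many genes.

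The 4 libraries held 7171323 and 6243918 reads in genes for WT Treg and 5615929 and 6504506 for WT Tconv. In each group the libraries differed by more than counting error, the chi-square statistic being 23.0 times its degrees of freedom in WT Treg and 21.9 times in WT Tconv. In the cTreg, Tnaive, eTreg and Teff groups it was 3.04 to 7.90. The labels do not say that the libraries of a group came from separate animals. The p-values thus measure only the spread between libraries of a group, pooled over all 26, which may be technical. In every other group except BATFKO Treg (30.3) the chi-square ratio was below that of WT Treg and WT Tconv. The pooled spread may therefore be too small for the bulk comparison, and its p-values too low. Values are TMM-scaled CPM, the reads of a gene relative to the total of its library, given for library 1 and then library 2 of a group. Changes are log2 fold changes of WT Treg over WT Tconv with an approximate standard error (SE), from an edgeR quasi-likelihood fit of all 26 libraries. A gene counted as called at a Benjamini-Hochberg adjusted p below 0.05. In a bulk sample, fewer cells of a type and less RNA per cell cannot be told apart.

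The libraries matched their titles. Foxp3 (chrX:7573644-7595245, mm10), which the sort itself follows through the reporter, stood at 404 and 505 CPM in WT Treg and at 4.07 and 2.57 CPM in WT Tconv, or 455 ± 71.2 against 3.32 ± 1.06 (mean ± SD, n = 2 each). Its log2 fold change was 7.11 ± 0.22 with an edgeR adjusted p of 2.35e-13. Of the transcripts that mark T cells in both groups, Cd3e stood at 725 and 746 CPM in WT Treg and 681 and 667 CPM in WT Tconv, and Cd4 at 685 and 829.6 against 855 and 1013 CPM, with an edgeR adjusted p of 0.057. Cd247, the zeta chain of the receptor complex, was called lower, at 269.6 and 333 against 378 and 439 CPM (-0.44 ± 0.11). Cd3d, Cd3g and Lck, like Cd4, were not called, and Trac was not among the genes tested.

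Of 12227 tested genes, 1475 (12.1%) were called higher in WT Treg and 817 (6.68%) were called lower, together 18.7%. The counts given below for each gene list stand beside these shares. The higher calls were the larger ones. Their median absolute log2 fold change was 1.40, and 933 of them passed 2-fold, 500 passed 4-fold and 140 passed 16-fold. Among the lower calls the median was 0.68, with 264 past 2-fold, 106 past 4-fold and 25 past 16-fold. In 99.5% of the higher and 99.5% of the lower calls both libraries of a group lay beyond both of the other, which held for 41.4% of all tested genes. A fit of the 4 libraries alone called 433 genes higher and 115 lower. Of its calls 79.0% were higher, against 64.4% in the fit of all libraries. A term for library number raised the count of calls in both fits. Same-numbered libraries of WT Treg and WT Tconv deviated together (correlation 0.709), which the fit of the 4 libraries alone, quoted below, leaves out. The labels do not say what the number marks. With the term, 2290 of the 2292 calls were kept in the fit of all libraries. Of the calls, 802 higher and 339 lower ones were made whichever single library was left out.

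Transcription factors of the T lineage split between both directions. Of 46 tested, 18 were called higher and 11 lower, with a median log2 change of 0.06 beside -0.002 over all tested genes. Of these 29 calls, 15 were also made with the 4 libraries alone and 22 whichever library was left out. Besides Foxp3, the Ikaros family members Ikzf2 (Helios) and Ikzf4 (Eos), both known as partners of Foxp3, stood far apart. Ikzf2 (chr1:69531214-69687245) was at 1237 and 852 CPM in WT Treg and 36.1 and 35.2 CPM in WT Tconv, a log2 change of 4.87 ± 0.29 (edgeR adjusted p 1.02e-09). Ikzf4 was at 164 and 170.0 against 9.91 and 11.9 CPM (3.93 ± 0.14, edgeR adjusted p 1.53e-12). Neither gene's groups overlapped. Ikzf1, which encodes Ikaros itself, went the other way, at 624 and 562 CPM in WT Treg and 1321 and 1154 CPM in WT Tconv (-1.06 ± 0.09). Tcf7 and Lef1, the high-mobility-group factors of naive and memory T cells, were also lower. Tcf7 was at 752 and 901 against 2082 and 2065 CPM (-1.33 ± 0.11, edgeR adjusted p 9.44e-08), and Lef1 at 322 and 301 against 872 and 902 CPM (-1.51 ± 0.12). Hopx, a small homeodomain protein of effector T cells, was at 99.4 and 112 against 12.6 and 19.3 CPM (2.72 ± 0.15). The other higher factors included Ikzf3, Gata3, Rora, Ahr, Prdm1, Irf8, Maf, Id3, Bhlhe40, Nfil3, Tox, Tox2 and Plagl1. The other lower ones were Satb1, Bach2, Foxp1, Runx3, Eomes, Id2, Epas1 and Zbtb16. Ets1, Klf2, Foxo1 and Elf4 were not called, and Ets1 was at 2738 and 2474 against 2826 and 2355 CPM. Klf2, the quiescence factor, was at 655 and 1538 against 846 and 1746 CPM, so that library 2 was the higher one in each group.

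The receptor for IL-2 was higher in its alpha and beta chains and not called in its gamma chain. Il2ra (chr2:11642807-11693193), the chain that gives high affinity, stood at 655 and 404 CPM in WT Treg and 8.84 and 5.62 CPM in WT Tconv (6.20 ± 0.31, edgeR adjusted p 6.77e-11). Il2rb was at 1036 and 1189 against 87.7 and 168 CPM (3.12 ± 0.20, edgeR adjusted p 2.37e-09). Il2rg, shared by several cytokine receptors, was at 609.7 and 542 against 622 and 557 CPM, a log2 change of -0.04 ± 0.09. Of 35 tested genes of cytokine receptors, with a few ligands among them, 17 were called higher and 6 lower, with a median of 0.58. The 4 libraries alone gave 10 of these 23 calls. Il1rl1, the IL-33 receptor ST2, was at 44.05 and 37.8 against 0.354 and 0.642 CPM (6.31 ± 0.68) and Il10ra at 104 and 120.4 against 33.1 and 35.7 CPM (1.71 ± 0.18). The ligand Csf1, a growth factor for macrophages, was at 39.97 and 49.4 against 2.12 and 5.62 CPM (3.50 ± 0.30). Il9r, Il10rb, Il12rb1, Il15ra, Il18r1, Il18rap, Il1r2, Ifnar1, Ifnar2, Ifngr1, Tgfbr1 and Osm completed the higher calls. Tgfbr3, the TGF-beta co-receptor betaglycan, had the smallest p of the lower ones, at 33.03 and 35.2 CPM in WT Treg and 192 and 184 CPM in WT Tconv (-2.46 ± 0.14, edgeR adjusted p 3.67e-10). Il7r, Il6ra, Ifngr2, Tgfbr2 and Acvr1b were lower too. Il4ra stood at 289 and 456 against 428 and 809 CPM and was not called (edgeR adjusted p 0.0689), and neither were Il27ra and Il6st.

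Downstream of those receptors, of 22 tested JAK, STAT and SOCS genes, 5 were called higher, 3 lower and 14 neither, with a median of 0.27. Only 2 of the 8 calls were made with the 4 libraries alone, and 3 whichever library was left out. The negative feedback genes that STAT5 is known to induce were among the higher ones. Cish was at 221 and 283 CPM in WT Treg and 16.4 and 24.1 CPM in WT Tconv (3.63 ± 0.23, edgeR adjusted p 1.76e-09), and Socs2 was at 57.5 and 30.4 against 1.42 and 1.28 CPM (5.03 ± 0.41). In both genes the lower WT Treg library lay above the higher WT Tconv library. Socs5 was at 37.9 and 33.9 against 19.99 and 16.2 CPM (0.99 ± 0.14), a call not made with the 4 libraries alone (edgeR adjusted p 0.0825). Pim1, a kinase induced by cytokines, was at 753 and 1093 against 371 and 516 CPM and lost its call without WT Treg library 2 (edgeR adjusted p 0.11) or WT Tconv library 1 (0.0992). Jak1, Pim2 and Pias1 were lower, Jak1 with 1053 and 988 against 1391 and 1263 CPM. That call was lost without WT Tconv library 1 (edgeR adjusted p 0.0574). For Pim2 the call was lost without WT Treg library 1 (0.127) or WT Tconv library 2 (0.0909). None of Stat5b, Stat6 and Jak3 was called, and Stat5b was at 401 and 456 against 331 and 390.4 CPM.

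**Figure D1:**
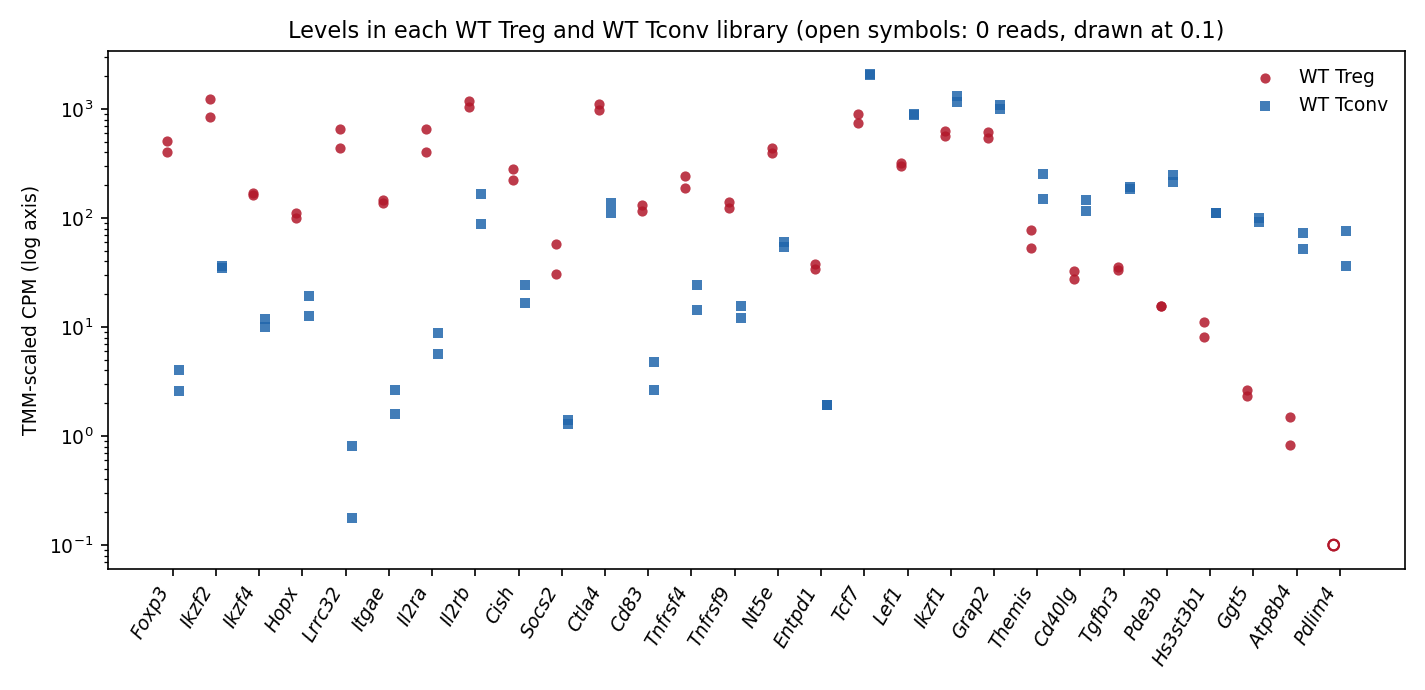
TMM-scaled CPM on a log axis for 28 genes in each WT Treg library (red circles) and each WT Tconv library (blue squares). The WT Treg points lie above the WT Tconv points from Foxp3 to Entpd1 and below them from Tcf7 to Pdlim4, which had 0 reads in both WT Treg libraries.

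Inhibitory and costimulatory receptors were more often higher. Of 29 tested genes of the CD28 and inhibitory receptor family, 15 were called higher and 3 lower, with a median of 0.73, and 11 of the 18 calls were also made with the 4 libraries alone. Ctla4 (chr1:60887000-60915832), which strips CD80 and CD86 from antigen-presenting cells, was at 974 and 1108 CPM in WT Treg and 111 and 138 CPM in WT Tconv (3.06 ± 0.21, edgeR adjusted p 5.72e-09). Cd83 was at 117 and 132 against 2.65 and 4.82 CPM (5.04 ± 0.30, edgeR adjusted p 8.95e-10). WT Tconv thus held a clear level of Ctla4 and little Cd83. The ligands of PD-1 were both higher, Cd274 (PD-L1) with 151 and 158 against 90.9 and 79.2 CPM (0.86 ± 0.09) and Pdcd1lg2 (PD-L2) with 23.8 and 19.3 against 3.71 and 3.21 CPM (2.64 ± 0.36). With the 4 libraries alone Cd274 was not called (edgeR adjusted p 0.0707). Slamf1 was at 81.3 and 83.6 against 26.4 and 29.4 CPM, and Klrg1, a receptor of terminally differentiated cells, at 18.8 and 15.7 against 0.354 and 0.482 CPM (5.32 ± 0.74). Icos, Pdcd1, Lag3, Tigit, Havcr2, Cd200, Cd80, Cd86 and Slamf6 were the other higher members, and Cd28, Crtam and Lair1 were lower. Cd5, Cd6, Ly9 and Btla were not called.

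The TNF receptor and ligand superfamily had 17 of 31 tested members called higher and 3 lower, with a median of 0.60. Its costimulatory receptors led. Tnfrsf4 (OX40) was at 190.2 and 243 CPM in WT Treg and 14.3 and 24.1 CPM in WT Tconv (3.49 ± 0.23, edgeR adjusted p 4.12e-09). Tnfrsf9 (4-1BB) was at 139.9 and 124 against 15.6 and 12.04 CPM (3.26 ± 0.20, edgeR adjusted p 1.79e-09). Tnfrsf18 (GITR) was at 187 and 237 against 30.8 and 53.8 CPM (2.32 ± 0.21) and Tnfrsf1b (TNFR2) at 360.4 and 422 against 57.1 and 104 CPM (2.27 ± 0.23), while Tnfrsf1a, the other TNF receptor, was called lower. Cd40lg, through which helper T cells activate B cells, was lower, at 27.6 and 32.4 against 145 and 116 CPM (-2.12 ± 0.15, edgeR adjusted p 6.07e-09). Among the ligands Lta was at 72.7 and 62.9 against 24.1 and 21.4 CPM (1.58 ± 0.15). The remaining higher members were Tnfrsf8, Tnfrsf13b, Tnfrsf25, Cd27, Cd40, Fas, Tnf, Tnfsf8, Tnfsf10, Tnfsf11, Tnfsf14 and the adaptor Traf1, and Fasl was lower. Leaving out any single library kept 10 of these 20 calls, and the 4 libraries alone gave 8. Ltb, Traf2, Traf3 and Traf5 were not called.

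Genes of suppressive effector molecules gave the highest share of higher calls among the lists. Of 23 tested, 19 were called higher and 1 lower, with a median log2 change of 3.76, and 16 of the 20 calls were also made with the 4 libraries alone. Lrrc32 (chr7:98489283-98502181) encodes GARP, which holds latent TGF-beta on the Treg surface. It was at 441 and 655 CPM in WT Treg and 0.177 and 0.803 CPM in WT Tconv (10.05 ± 0.48, edgeR adjusted p 4.62e-11), so WT Tconv was close to the level of 3 reads, 0.531 and 0.482 CPM in its libraries. Nrp1, a surface marker of thymus-derived Treg, was at 391 and 394 against 20.9 and 28.7 CPM (3.98 ± 0.20, edgeR adjusted p 8.92e-11). The ectoenzymes that degrade ATP to adenosine were both higher, Entpd1 (CD39) with 37.9 and 33.9 against 1.95 and 1.93 CPM (4.21 ± 0.28) and Nt5e (CD73) with 436 and 393 against 53.9 and 59.7 CPM (2.86 ± 0.20). WT Tconv kept a substantial Nt5e level and little Entpd1. Besides Ctla4 and Cd83, the higher members were Il10, Tgfb1, Ebi3, Fgl2, Itgb8, Itgav, Gzmb, Lgals1, Areg, Penk, Lag3, Tigit and Hgf. Prf1 (perforin), a killing protein of cytotoxic cells, was the lower member at 2.72 and 6.11 against 11.7 and 28.4 CPM (-2.22 ± 0.40). It was not called with the 4 libraries alone (edgeR adjusted p 0.112). Metrnl and Gzma were not called, and Dcn had 0 reads in the 4 libraries.

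On the intracellular side of adenosine signalling, 24 genes of cyclic AMP and adenosine metabolism gave 6 higher and 7 lower calls, with a median of 0.15. All 13 were made whichever library was left out, and 4 of them with the 4 libraries alone. Pde3b, a phosphodiesterase that breaks down cyclic AMP, was at 15.6 and 15.5 CPM in WT Treg and 246 and 215 CPM in WT Tconv (-3.88 ± 0.18, edgeR adjusted p 2.83e-11). WT Treg was thus far below both WT Tconv libraries and varied little between its own. Pde7a and Pde4b were lower by less, with -0.96 and -0.81 on the log2 scale, and neither was called with the 4 libraries alone (edgeR adjusted p 0.0999 and 0.0745). Adcy6, an adenylyl cyclase, was at 78.2 and 67.4 against 172 and 174 CPM (-1.25 ± 0.15). Pde4d, Adcy7 and Prkar2a were the other lower members. Higher beside the ectoenzymes were Adora2a, Pde4a, Prkar1b and the nucleoside transporter Slc29a1, at 92.2 and 112 against 41.2 and 59.7 CPM (1.01 ± 0.16). Slc29a1 lost its call with the 4 libraries alone (edgeR adjusted p 0.0921). Prkar1a, Prkacb, Pde2a and Dpp4 were not called.

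**Figure D2:**
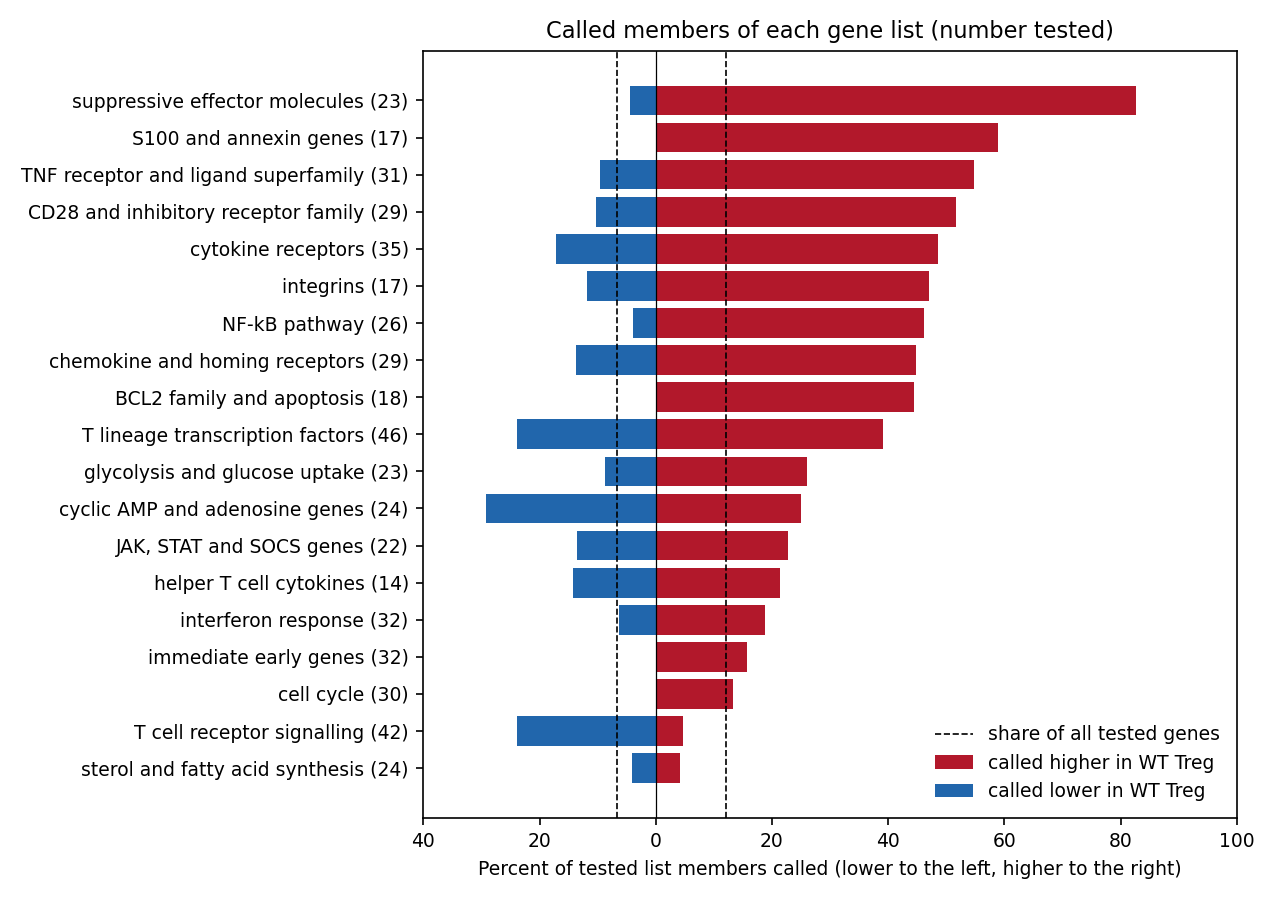
Percent of the tested members of each gene list called higher (red, to the right) or lower (blue, to the left) in WT Treg, with the number tested in brackets. The dashed lines mark the shares over all tested genes, 12.1% higher and 6.68% lower. Suppressive effector molecules have the longest red bar, and T cell receptor signalling is longer on the blue side.

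Receptors for migration and adhesion were mostly higher where they were called. Of 29 tested chemokine and homing receptors, 13 were higher and 4 lower, with a median of 0.87. Of the 17 calls, 9 were also made with the 4 libraries alone. Ccr6, a receptor for mucosal homing, was at 41.5 and 30.2 CPM in WT Treg and 2.83 and 1.93 CPM in WT Tconv (3.92 ± 0.34). Ccr8, known from Treg in tissues, was at 46.1 and 68.7 against 6.19 and 8.19 CPM (2.98 ± 0.29), and the skin-homing receptor Ccr4 at 63.2 and 40.97 against 7.08 and 6.42 CPM (2.95 ± 0.35). Gpr83, an orphan receptor known from Treg, was at 109 and 88.2 against 14.2 and 7.87 CPM (3.17 ± 0.26, edgeR adjusted p 5.78e-08), and Ptger2, a prostaglandin E2 receptor, at 55.9 and 86.7 against 4.25 and 8.51 CPM (3.46 ± 0.26). Ccr2, Ccr3, Cxcr5, S1pr2, Gpr15, Gpr55, Ptger4 and Cd44 were higher too, and Ccr2 lost its call without WT Treg library 1 (edgeR adjusted p 0.0897). The lower calls were Ccr7 and S1pr1, which guide cells into and out of lymph nodes, and Gpr183 and Gpr18. Gpr18 was at 23.7 and 24.4 against 73.8 and 87.4 CPM (-1.75 ± 0.21). Selplg, S1pr4 and Cxcr4 were not called, and Cxcr4 was at 156 and 436 against 154 and 326 CPM, again with library 2 the higher in each group.

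Among 17 tested integrins 8 were higher and 2 lower, with a median of 0.46, and the 4 libraries alone gave 5 of the 10 calls. Itgae (CD103), which binds E-cadherin on epithelium, was at 137 and 147 CPM in WT Treg and 2.65 and 1.61 CPM in WT Tconv (6.06 ± 0.28, edgeR adjusted p 2.83e-11). Itgav and Itgb8 together form an integrin that activates latent TGF-beta. Itgav was at 105 and 99.6 against 48.6 and 48.5 CPM (1.07 ± 0.17) and Itgb8 at 37.9 and 35.2 against 0.177 and 2.25 CPM (4.85 ± 0.53), with WT Tconv library 1 below the level of 3 reads. Itgb1 was at 453 and 398 against 159.7 and 164 CPM (1.39 ± 0.14), and Itga5, Itga6, Itgb5 and Itgal completed the higher calls. Itgb3 was lower, at 91.2 and 102 against 216 and 207 CPM (-1.13 ± 0.16), and so was Itgam. Itgal, one of the most read genes of the comparison, was at 1322 and 1570.5 against 957 and 1145 CPM, and its call was lost without WT Treg library 2 (edgeR adjusted p 0.0561). Itgb7, Itga4, Itgb2 and Itga9 were not called. Of 17 S100, annexin and related genes, which are high in activated and migrating cells, 10 were higher and 0 lower, with a median of 0.66, and 7 of these were also called with the 4 libraries alone. Capg, an actin-capping protein, was at 215 and 253 against 31.5 and 40.5 CPM (2.70 ± 0.17, edgeR adjusted p 1.97e-09), Ahnak at 1142 and 1076 against 252 and 288 CPM (2.04 ± 0.18) and S100a4 at 43.1 and 44.6 against 7.25 and 7.55 CPM (2.56 ± 0.28). Each of these 3 genes had similar values in the libraries of a group. S100a6, S100a10, S100a11, S100a13, Anxa2, Anxa4 and Vim were higher as well, of which S100a11 lost its call without WT Tconv library 1 (edgeR adjusted p 0.0534), while Anxa5, Anxa6, Anxa7 and Anxa11 were not called.

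T cell receptor signalling had more lower than higher calls. Of 42 tested genes 2 were higher and 10 lower, with a median of -0.11, and 30 were not called. With the 4 libraries alone 1 of the 12 calls was made, and 8 were made whichever library was left out. Themis, a protein of T cell selection in the thymus, was at 77.4 and 52.9 CPM in WT Treg and 254 and 149 CPM in WT Tconv (-1.62 ± 0.21, edgeR adjusted p 1.24e-05), and the adaptor Grap2 (GADS) at 537 and 613 against 1007 and 1099 CPM (-0.87 ± 0.13). Both lay below WT Tconv in each library, and neither was called with the 4 libraries alone (edgeR adjusted p 0.0639 and 0.0743). Itpr1, Txk, Cd247, Prkcq, Ptpn6, Dgka and Stim1 were among the other lower members. Dgka, which removes the messenger diacylglycerol, was at 1656 and 1670.0 against 2269.6 and 2363 CPM (-0.48 ± 0.09), a call not made with the 4 libraries alone (edgeR adjusted p 0.335). The higher members were Lcp2 and Ubash3b, a phosphatase that limits receptor signals, at 85.4 and 68.9 against 38.03 and 39.2 CPM (edgeR adjusted p 8.9e-05, and 0.0556 with the 4 libraries alone). Ptprc, Lck, Dgkz and Lat were not called.

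Immediate early genes, which answer receptor signals and also cell handling, gave 5 higher and 0 lower calls among 32 tested, with a median of 0.40. The higher share was not far from the 12.1% of all tested genes. Rgs1 was at 582 and 429.9 CPM in WT Treg and 102 and 77.4 CPM in WT Tconv (2.497 ± 0.24, edgeR adjusted p 4.86e-07), and the RNA-decay factor Zfp36 at 1058 and 1135 against 448 and 430.2 CPM (1.32 ± 0.26). Dusp2 was at 411 and 441 against 287 and 282 CPM (0.58 ± 0.13). Egr2, a marker of recent receptor signals, was at 59.4 and 61.95 against 30.2 and 35.7 CPM, and its relative Egr3 at 72.05 and 57.3 against 44.2 and 36.3 CPM. Egr2 lost its call without WT Tconv library 1 (edgeR adjusted p 0.0523), and Egr3 without WT Treg library 1 (0.0567) or WT Tconv library 2 (0.0554). With the 4 libraries alone, Rgs1 and Zfp36 were called and the other 3 were not. The AP-1 genes Jun, Junb and Jund were not called. Jun was at 1179 and 2295 against 1180.2 and 2202 CPM (0.04 ± 0.70), Junb at 2620.5 and 5956 against 1915 and 3682 CPM (0.62 ± 0.65) and Jund at 896 and 2186 against 896 and 2159.8 CPM (0.01 ± 0.41). Library 2 was the higher one in both groups for all 3 genes. Their partner genes Fos and Fosb, chosen after their values were seen, were not called either, although both WT Treg libraries lay above both of WT Tconv. Fos was at 928 and 1034 against 468 and 516 CPM (0.99 ± 0.77, edgeR adjusted p 0.444, and 0.0477 with the 4 libraries alone). Fosb was at 634 and 1077 against 246 and 436 CPM (1.33 ± 0.73, edgeR adjusted p 0.245). Klf6 was not called. What separates libraries 1 and 2 is not given in the labels.

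Helper cytokine genes moved in both directions. Of 14 tested helper cytokine genes, 3 were higher, 2 lower and 9 not called, with a median of 0.08. Il2 had 2 reads in WT Treg and 19 in WT Tconv, a count ratio of 10.7 (95% exact interval 2.59 to 94.9) in favour of WT Tconv, which covers counting error only. Tnf was at 35.2 and 25.9 against 14.9 and 14.3 CPM (1.07 ± 0.17) and Lif at 23.1 and 17.2 against 5.84 and 5.94 CPM (1.78 ± 0.22), and with Lta and Cd40lg these were the 5 calls. Tnf was not called with the 4 libraries alone (edgeR adjusted p 0.0851). Ifng was at 15.4 and 17.5 against 11.9 and 15.9 CPM and was not called, nor were Ccl5, Il21 and Xcl1.

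The NF-kB pathway and the BCL2 family, through which survival signals act, were called mostly in the higher direction. Of 26 NF-kB genes 12 were higher and 1, the kinase Ikbkb, lower, with a median of 0.58. Only 4 of the 13 calls were made with the 4 libraries alone, and 9 whichever library was left out. Map3k8, a kinase of this pathway, was at 55.5 and 38.2 CPM in WT Treg and 10.3 and 9.64 CPM in WT Tconv (2.24 ± 0.18, edgeR adjusted p 3.85e-08). The subunit genes Nfkb1 and Rel moved less. Nfkb1 was at 555 and 649 against 361 and 426 CPM (0.61 ± 0.09) and Rel at 138 and 148 against 89.9 and 78.4 CPM (0.76 ± 0.13), and with the 4 libraries alone neither was called (edgeR adjusted p 0.203 and 0.0999). Nfkb2, Nfkbia, Nfkbie, Nfkbiz, Tnip3, Birc3 and Icam1 were higher as well, and Rela, Tnip1, Tnfaip3 and Cflar were not called. Of 18 BCL2 family and apoptosis genes 8 were higher and 0 lower, with a median of 0.56. With the 4 libraries alone 5 of the 8 were called. The protective member Bcl2l1 (BCL-XL) was at 58.05 and 53.2 against 21.2 and 26.8 CPM (1.21 ± 0.15) and Bcl2l2 (BCL-W) at 14.95 and 11.7 against 3.71 and 4.34 CPM (1.73 ± 0.20). Bcl2 was at 613 and 430.0 against 301 and 216 CPM (1.01 ± 0.16, and edgeR adjusted p 0.133 with the 4 libraries alone). The killing member Pmaip1 (NOXA) was higher too, at 69.6 and 80.5 against 15.6 and 14.3 CPM (2.33 ± 0.20, edgeR adjusted p 9.44e-08). Protective and killing members were thus both among the higher calls. Bcl2a1b and Bcl2a1d, also higher, are near-identical copies between which reads can be shared, and Bid was higher. Mcl1, Casp8, Bcl2l11 and Xiap were not called.

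Of 23 genes of glycolysis and glucose uptake 6 were higher and 2 lower, with a median of 0.07, and the 4 libraries alone gave 4 of the 8 calls. The glucose transporter Slc2a3 (GLUT3) was at 134 and 131 against 62.3 and 70.5 CPM (0.99 ± 0.13), and Hk2, the first enzyme of glycolysis, at 15.6 and 13.5 against 4.6 and 2.57 CPM (2.04 ± 0.28). Pdk1, the kinase that holds pyruvate back from mitochondria, was lower, at 173 and 169.7 against 455 and 424 CPM (-1.36 ± 0.10, edgeR adjusted p 1.62e-08). The abundant enzymes Pkm, Gpi1, Ldha and Aldoa were not called. Of 24 sterol and fatty acid synthesis genes, with a median of -0.11, Scd2 was higher (0.85 ± 0.15) and Lss lower (-0.54 ± 0.18), and neither was called with the 4 libraries alone (edgeR adjusted p 0.141 and 0.336). Lss lost its call without WT Treg library 1 (0.0743), WT Treg library 2 (0.144) or WT Tconv library 1 (0.178). Of 30 cell cycle genes 4 were higher and 0 lower, close to the 12.1% of all tested genes, with a median of 0.83. No call of this list was made with the 4 libraries alone, and 1 was made whichever library was left out. Mki67, a marker of dividing cells, was at 114 and 38.7 against 32.4 and 14.5 CPM, and its log2 change was 1.73 ± 0.51. Without WT Treg library 1 it was 0.73 (edgeR adjusted p 0.42), and without WT Tconv library 2 it was 1.24 (0.218). Aurkb lost its call without WT Treg library 1 (0.497) or either WT Tconv library (0.053 and 0.225). The replication factors Mcm6 and Mcm5 changed by 0.85 ± 0.16 and 0.43 ± 0.12, and Mcm5 lost its call without WT Treg library 1 (0.0949) or WT Tconv library 1 (0.141). Pcna, Mcm2, Mcm3 and Mcm4 were not called.

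Interferon response genes gave 6 higher and 2 lower calls among 32, with a median of 0.09. The lower share was near the 6.68% of all tested genes, and the higher share was above their 12.1%. The 4 libraries alone gave 4 of the 8 calls. Guanylate-binding proteins act against intracellular microbes, and Gbp3 was at 85.8 and 74.01 CPM in WT Treg and 11.3 and 13.3 CPM in WT Tconv (2.69 ± 0.14). Gbp5 was at 94.1 and 71.4 against 25.5 and 21.2 CPM (1.83 ± 0.17). Ifi27l2a was at 226 and 270.4 against 116 and 124 CPM (1.05 ± 0.18). Oas2 and Ddx58 (RIG-I), sensors of viral RNA, went the other way, Oas2 with 25.96 and 20.98 against 97.8 and 77.4 CPM (-1.89 ± 0.37). Ddx58 lost its call without WT Treg library 2 (edgeR adjusted p 0.0898) or WT Tconv library 1 (0.152). Isg20, Oas1a and Mx1 were also called higher, and Isg20 lost its call without WT Treg library 2 (0.102) or WT Tconv library 1 (0.0936). Irf1, Irf9 and Igtp were not called. The Gbp genes are close paralogs, and Gbp2b (17.5 and 13.7 against 0.177 and 0 CPM, higher) and Gbp11 (2.72 and 1.98 against 7.96 and 7.87 CPM, lower) are uncertain for that reason.

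The 250 bases before the RefSeq start of transcription (GRCm38.p6) were searched on both strands for 4 short motifs. A window was found for 9339 of the 12227 tested genes. The STAT motif TTCNNNGAA was present in 6.62% of 1435 windows of genes called higher, 5.96% of 872 windows of genes called lower and 5.91% of 9591 windows of genes not called, beside 7.02% of all 32851 windows. The AP-1 motif TGANTCA was present in 5.99%, 4.24% and 3.92%, beside 6.75% of all windows. For the kB consensus the shares were 0.976% (14 windows), 0.229% (2 windows) and 0.302% (29 windows), beside 0.356% of all. The forkhead motif TGTTTAC was present in 2.72%, 2.29% and 2.12%, beside 3.17% of all. These shares are descriptions with no test, windows of a gene with several starts overlap, and a match is not a bound site. Shown here are stretches for 4 called genes with a match, cut where an annotated exon begins, 5′ to 3′ on the gene's strand, with the matches in capitals. Foxp3 (chrX:7580233-7580482, plus strand) and Tnfrsf9 (chr4:150927749-150927917, plus strand) hold the same 9 letters of a STAT match, 139 to 131 and 136 to 128 bases before the start. Each is the window of 1 of 2 annotated starts of its gene, and the Foxp3 window lies within the span of the gene. They are shown because Foxp3 and Tnfrsf9 share the match and because Csf1 and Gbp5 hold a kB match, here read on the strand shown. Csf1 (chr3:107760470-107760719, minus strand) holds it 154 to 145 bases before the start. Gbp5 (chr3:142496684-142496899, plus strand) holds a kB match 77 to 68 bases before its start and a STAT match on either side of it.
Foxp3: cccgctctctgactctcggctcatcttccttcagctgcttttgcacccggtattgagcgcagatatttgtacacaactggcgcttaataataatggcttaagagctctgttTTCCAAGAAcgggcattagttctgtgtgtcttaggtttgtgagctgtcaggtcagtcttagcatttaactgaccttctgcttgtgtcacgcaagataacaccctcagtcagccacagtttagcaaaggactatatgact
Tnfrsf9: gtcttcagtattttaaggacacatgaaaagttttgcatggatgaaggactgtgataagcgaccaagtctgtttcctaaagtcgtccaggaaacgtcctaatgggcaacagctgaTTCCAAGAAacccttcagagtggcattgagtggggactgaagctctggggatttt
Csf1: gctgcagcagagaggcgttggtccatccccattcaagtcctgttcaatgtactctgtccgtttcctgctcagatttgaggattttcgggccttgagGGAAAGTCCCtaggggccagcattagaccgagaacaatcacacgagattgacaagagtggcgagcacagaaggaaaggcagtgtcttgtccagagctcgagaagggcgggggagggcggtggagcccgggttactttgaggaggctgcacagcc
Gbp5: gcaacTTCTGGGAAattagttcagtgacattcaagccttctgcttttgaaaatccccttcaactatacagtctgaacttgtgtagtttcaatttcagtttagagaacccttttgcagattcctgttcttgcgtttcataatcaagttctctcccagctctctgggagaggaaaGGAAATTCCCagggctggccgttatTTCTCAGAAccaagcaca
The levels of these 4 genes are those given above, and each was called higher in WT Treg.

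The largest changes were found in genes with few or no reads on one side. Slc7a10, an amino acid transporter, had 157 reads in WT Treg and 0 in WT Tconv, so it was at least 46.4-fold higher when the empty group is set to 3 counts in all. Bicd1 (120 against 0 reads) was at least 35.4-fold and Peli2 (100 against 0 reads) at least 29.5-fold higher by the same floor. In Gbp2b, Gjb2, Fsd1l, Dnah7a and Noxa1, WT Tconv had 1 or 2 reads and WT Treg 111 to 270. The count ratio of Gjb2, a gap junction protein, was 132 (95% exact interval 23.3 to 5249). With Lrrc32, Foxp3, Il1rl1 and Il2ra these were the 12 largest called rises. In the lower direction Pdlim4 led. This actin-associated LIM protein had 0 reads in WT Treg and 674 in WT Tconv, at 36.3 and 75.3 CPM, and was at least 254-fold lower in WT Treg. Atp8b4, a lipid transporter of the P4-ATPase family, was at 1.5 and 0.826 CPM in WT Treg and 72.7 and 52.4 CPM in WT Tconv (-5.70 ± 0.32, edgeR adjusted p 3.56e-10). Ggt5, which cleaves glutathione and leukotriene C4, was at 2.31 and 2.64 against 92.3 and 101 CPM (-5.29 ± 0.24, edgeR adjusted p 2.83e-11). Both were abundant in WT Tconv and low in each WT Treg library. Zbtb16 (PLZF), the factor of innate-like T cells, had 1 read against 108, a ratio of 122 (95% exact interval 21.4 to 4859). Klrd1 (CD94), a natural killer cell receptor, had 1 read against 89, a ratio of 100.5 (95% exact interval 17.6 to 4012). Adgrg5, Adamts14, Amz1, P4ha2, App, Lrrc75b and Nfam1 completed the 12 largest falls, and App was at 0.272 and 3.63 against 31.3 and 46.7 CPM (-4.41 ± 0.48).

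The called genes with the most reads were, besides Dgka, Tcf7, Itgal and Jak1, Flna, Ablim1, Gimap3 and Rn45s. Flna, a large actin crosslinker, was at 1277 and 1611 against 1882 and 2388 CPM (-0.56 ± 0.12), and Ablim1 at 1218 and 1072 against 1569.8 and 1387 CPM (-0.37 ± 0.10). Gimap3, a guanosine triphosphatase of lymphocyte survival, was at 1163 and 1265 against 917 and 1015 CPM (0.33 ± 0.11). Rn45s, the precursor of ribosomal RNA, was at 1053 and 1198 against 1608 and 2726 CPM (-0.95 ± 0.27), with WT Tconv library 2 the highest. None of these 4 was called with the 4 libraries alone (edgeR adjusted p 0.354, 0.556, 0.569 and 0.184). Flna was called whichever library was left out. Ablim1 lost its call without WT Treg library 2 (0.0864) or WT Tconv library 1 (0.099), and Rn45s without WT Treg library 1 (0.108) or WT Tconv library 2 (0.24). For Gimap3 the call was lost without any 1 of the 4 libraries (0.0538 to 0.208).

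Markers of other cells that the gates could admit were present at low levels in both groups, and some of them are among the genes named above. Of 15 tested CD8 and natural killer cell markers, 6 were lower and 1, Gzmb, was higher, at 12.1 and 3.8 against 0.884 and 0.321 CPM. Summed over all 19 such markers the level was 134 and 115 CPM in WT Treg and 223 and 235 CPM in WT Tconv. A large part of that sum was Txk, a kinase that T cells also use and that is counted under T cell receptor signalling too, at 81.4 and 57.7 against 145 and 128 CPM. The receptor genes Klrd1 and Klrk1 had 89 and 47 reads in WT Tconv and 1 read each in WT Treg, and Ncr1, Klra7, Klrc1, Klrc2 and Klre1 had 0 reads in WT Treg. Klra1 and Klra8 had 0 reads in both groups. Eomes was at 1.9 and 3.14 against 8.31 and 12.5 CPM. Eomes and Prf1 are themselves members of this list. Zbtb16 is a member of the NKT and gamma delta T cell list, whose sum was higher in both WT Treg libraries. The part of other cells in those calls was not tested. Summed over 17 B cell markers the level was 67.0 and 92.2 CPM in WT Treg and 27.8 and 37.1 CPM in WT Tconv. Of 10 tested, Cd79b, Cd74 and Fcmr were higher and H2-Aa and H2-Ab1 lower, while Ms4a1, the gene of CD20, had 0 reads in all 4 libraries. Cd74 alone was at 38.9 and 56.8 against 8.49 and 14.8 CPM (2.02 ± 0.27). H2-Aa lost its call without WT Treg library 2 (edgeR adjusted p 0.141), WT Tconv library 1 (0.0991) or WT Tconv library 2 (0.0561), and H2-Ab1 without WT Treg library 1 (0.132), WT Treg library 2 (0.074) or WT Tconv library 2 (0.178). Myeloid and dendritic markers summed to 101 and 89.4 against 66.3 and 81.9 CPM over 26 genes. Most of that sum was Bst2, at 48.9 and 65.4 against 48.1 and 63.9 CPM, and Ccr2, counted under chemokine receptors too. Ccr2 was at 41.1 and 13.5 against 5.66 and 2.89 CPM, while Lyz2 was at 0.816 and 0.496 against 0.177 and 0.161 CPM. Among 22 tested myeloid and dendritic markers, Ccr2 and Zbtb46 were higher and Itgam lower. None of these 3 calls was made with the 4 libraries alone. Zbtb46 was at 0.952 and 2.48 against 0.354 and 0.161 CPM. Spi1, S100a8 and Csf3r had 0 reads in WT Treg, and 2, 1 and 1 reads in WT Tconv library 2. C1qb had 4 and 1 reads in WT Treg and 0 in WT Tconv. Markers of NKT and gamma delta T cells summed to 50.8 and 40.1 against 37.9 and 31.8 CPM over 13 genes. The erythroid sum was 7.75 and 11.9 against 12.2 and 17.5 CPM over 12 genes, with both Hba and both Hbb genes at 0 reads in all 4 libraries. The stromal sum of 202 and 197 against 247 and 252 CPM over 16 genes was nearly all Pecam1, which T cells also express, while Dcn, Lum and Pdgfra had 0 reads in all 4 libraries. Among 8 tested stromal markers, Col1a1 and Col1a2 were called higher and Pecam1 lower. Col1a1 had 28 reads in WT Treg and 4 in WT Tconv, and Col1a2 had 8 and 0. None of these 3 calls was made with the 4 libraries alone.

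Treg and conventional cells were also sorted separately as resting and effector cells. The fold changes of these sorts share no library with the bulk ones, although the fit takes its spread from all 26 libraries. cTreg against Tnaive gave 967 higher calls (7.91%) and 525 lower ones (4.29%), and eTreg against Teff gave 1004 (8.21%) and 888 (7.26%). Of the 1475 genes higher in bulk WT Treg, 764 were also higher in cTreg (51.8% of the bulk calls and 79.0% of the cTreg calls). In eTreg 670 were also higher (45.4% and 66.7%). In both sorts 431 were higher, which is 29.2% of the bulk calls and 90.7% of the 475 genes higher in both sorts. Of the 817 lower genes, 364 were lower in cTreg (44.6% and 69.3%), 323 in eTreg (39.5% and 36.4%) and 198 in both (24.2%, and 85.7% of 231). Of the genes higher in bulk, 2 (0.14%) were called lower in cTreg and 44 (2.98%) lower in eTreg.

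The genes with the smallest p that were higher in all 3 comparisons were Foxp3, Ikzf4, Coro2a, Dst, Myo1e and Itgae. Ikzf4 changed by 3.93 ± 0.14 in bulk, by 3.68 ± 0.13 in the resting sort and by 4.42 ± 0.14 in the effector sort. Dst, a large cytoskeletal linker, was at 277 and 297 CPM in WT Treg and 15.4 and 20.4 CPM in WT Tconv, with 3.998 ± 0.18, 3.99 ± 0.18 and 2.52 ± 0.16. Myo1e, a membrane-bound myosin, changed by 4.81 ± 0.22, 5.38 ± 0.25 and 2.15 ± 0.15. In the lower direction the genes were Ggt5, Pde3b, Atp8b4, Tgfbr3, Hs3st3b1 and Tdrp. Pde3b was at 28.3 and 25.6 CPM in cTreg and 344 and 300.1 CPM in Tnaive, and at 12.1 and 10.4 CPM in eTreg and 286 and 212 CPM in Teff. Its log2 changes were -3.88 ± 0.18 in bulk, -3.58 ± 0.17 in the resting and -4.47 ± 0.18 in the effector sort, so that it was low in each of the 6 Treg libraries. Hs3st3b1, a heparan sulfate sulfotransferase, was at 8.02 and 11.2 against 112 and 110.2 CPM in bulk and changed by -3.54 ± 0.21, -2.99 ± 0.19 and -2.77 ± 0.20. Cd40lg changed by similar amounts in the 3 comparisons, with -2.12 ± 0.15, -1.98 ± 0.15 and -2.02 ± 0.14.

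**Figure D3:**
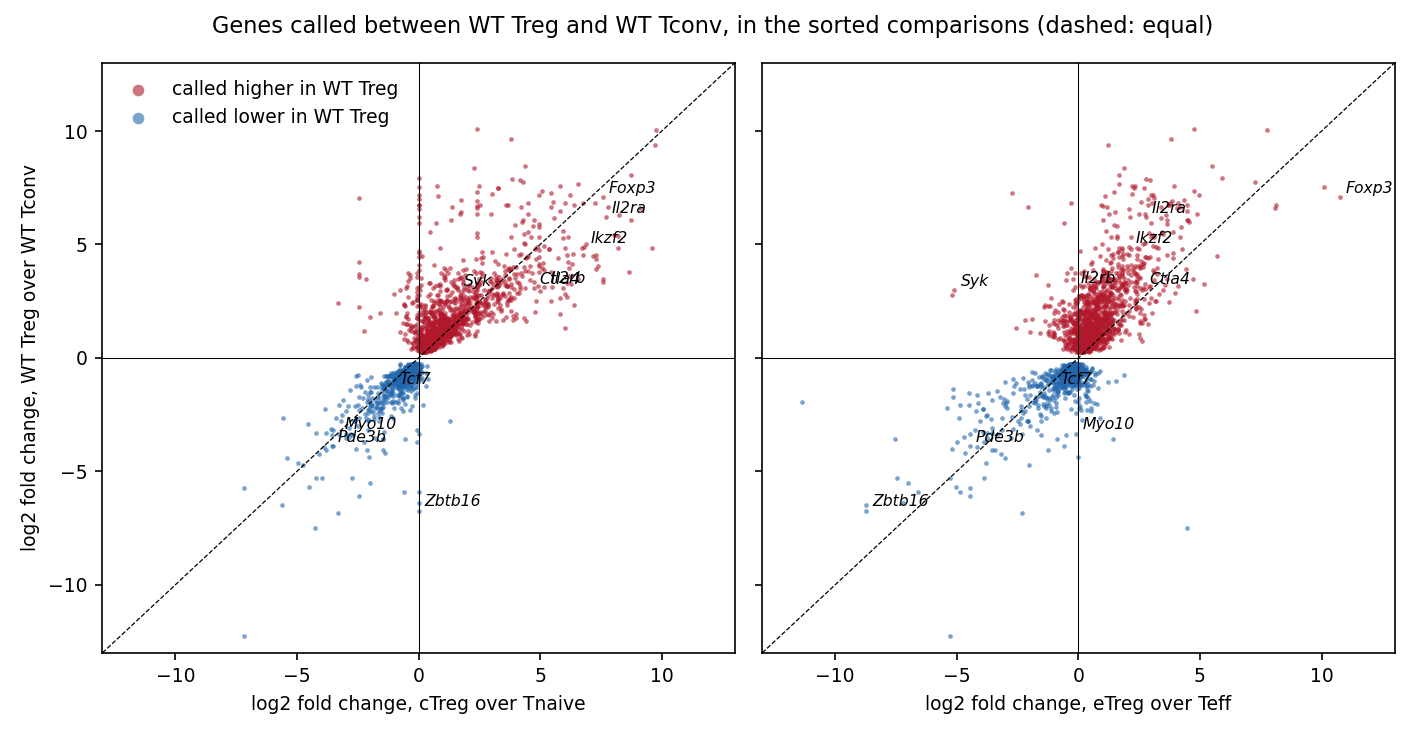
The log2 fold change of WT Treg over WT Tconv (vertical axis) for the 2292 called genes against that of cTreg over Tnaive (left) and of eTreg over Teff (right). Red genes were called higher and blue genes lower in bulk, and on the right many red genes lie above the dashed line of equal change, with Syk on the other side of 0.

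A further 472 genes higher in bulk (32.0%) and 328 lower ones (40.1%) were called the same way in neither sort. Those with the smallest p among the higher ones were Ttc39c, Plekhb2, S100a4, Crmp1, Rilpl2 and Cd74. S100a4 was at 0.188 and 0.594 CPM in cTreg, 0.102 and 0.0999 in Tnaive, 156 and 142 in eTreg and 181 and 148 in Teff. It was thus high in both effector sorts, with bulk WT Treg between them and the resting sorts. Plekhb2 was at 115 and 113 against 58.7 and 58.6 CPM in bulk (0.96 ± 0.10) and changed by 0.25 ± 0.10 and 0.25 ± 0.09 in the sorts. Among the lower ones were Gpr183, Gbp11, Bach2, Mrps5, Pde4b and Trim13. Gpr183, the oxysterol receptor that positions cells in lymphoid follicles, was at 82.8 and 124 against 292 and 378 CPM in bulk (-1.70 ± 0.21) and changed by -0.46 ± 0.21 and 0.33 ± 0.21 in the sorts. Bach2, which restrains effector differentiation, was at 196 and 203 against 307 and 307 CPM in bulk (-0.62 ± 0.10, and edgeR adjusted p 0.148 with the 4 libraries alone). It was at 279 and 268 CPM in cTreg, 278 and 282 in Tnaive, 61.8 and 53.2 in eTreg and 50.4 and 47.4 in Teff, so its levels differed between resting and effector sorts far more than between Treg and conventional cells of a sort.

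The bulk calls moved with the difference between resting and effector cells. That difference was measured in libraries that the bulk fold changes do not use, although the spread behind the calls does. Of the 1475 genes higher in bulk WT Treg, 82.2% had a higher mean in eTreg than in cTreg, and 88.6% had a higher mean in Teff than in Tnaive. Of the 817 lower genes these shares were 23.9% and 19.3%, and of the 9935 genes not called 48.1% and 48.0%. Their median log2 difference of eTreg over cTreg was 0.87 for the higher, -0.28 for the lower and -0.01 for the uncalled genes. How many effector cells each bulk gate held was not measured, so a larger share of effector cells in WT Treg and a change within cells cannot be told apart.

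Where the bulk change differed from that of the resting sort was tested by the difference between the contrasts. This called 9 genes with a higher (0.0736%) and 12 with a lower bulk value (0.0981%), while 807 passed an unadjusted p of 0.05. In Il2rb, Coro2a and Rgs1 the bulk change was the smaller one, and WT Tconv had a higher level than Tnaive. Il2rb was at 951 and 915 CPM in cTreg against 26.4 and 25.9 CPM in Tnaive, a difference of -2.04 ± 0.27 between the bulk and resting changes (edgeR adjusted p 0.00116). Coro2a, a coronin of the actin cytoskeleton, was at 367 and 407 against 15.7 and 18.8 CPM in bulk and 348 and 348 against 3.06 and 1.7 CPM in the resting sort (-2.71 ± 0.27, edgeR adjusted p 8.67e-05). Rgs1 was at 212 and 209.6 against 2.75 and 6.89 CPM in the resting sort (-2.95 ± 0.38, edgeR adjusted p 0.00104). Those 3 differences were called whichever library was left out. In the other direction Nav2 and Maged1 changed sign. Nav2 was at 92.8 and 142 against 32.5 and 35.2 CPM in bulk and 5.55 and 6.44 against 24.2 and 23.9 CPM in the resting sort, a difference of 3.79 ± 0.50 (edgeR adjusted p 0.00104). Maged1 was at 6.25 and 7.6 against 3.01 and 3.05 CPM and 0.564 and 0.991 against 3.97 and 3.5 CPM, a difference of 3.44 ± 0.44 (edgeR adjusted p 0.00104). With the 8 libraries of these 4 groups alone, 1 of the 21 calls was made.

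The bulk change differed from the effector sort in 639 genes (5.23%), 486 with a higher bulk value (3.97%) and 153 with a lower one (1.25%). Examples chosen after their values were seen are Il2rb, Il2ra, Entpd1, Hopx and Itgb1. Il2rb was at 959 and 956 CPM in eTreg and 1191 and 938 CPM in Teff, a change of -0.15 ± 0.18 beside 3.12 ± 0.20 in bulk (3.27 ± 0.27 for the difference, edgeR adjusted p 1.35e-06). Il2ra was at 425 and 343 against 69.5 and 43.97 CPM (3.44 ± 0.37, edgeR adjusted p 1.46e-05). In both chains the level in Teff was above that in WT Tconv. Entpd1 was at 34.4 and 33.2 CPM in Teff against 49.03 and 49.6 CPM in eTreg (3.66 ± 0.34, edgeR adjusted p 3.89e-06), and Hopx at 89.3 and 81.6 against 96.7 and 107 CPM (2.47 ± 0.20, edgeR adjusted p 1.35e-06). Itgb1 changed sign, at 796 and 844 CPM in eTreg and 1160.1 and 1284 CPM in Teff (-0.58 ± 0.13) beside 1.39 ± 0.14 in bulk (edgeR adjusted p 4.98e-06 for the difference). Of the suppressive effector list 9 of 23 tested genes had a higher and 0 a lower bulk value, with a median difference of 2.03. Foxp3 had a smaller bulk than effector change, and it was at 0.293 and 0.274 CPM in Teff and at 4.07 and 2.57 CPM in WT Tconv (-3.63 ± 0.48, edgeR adjusted p 0.000118). Those Teff values are the level of 3 reads in each library, so the size of this difference is uncertain. Myo10 and Acvrl1 were lower in Treg in the bulk and resting comparisons and not in the effector one. Myo10, a myosin of cell protrusions, was at 83.8 and 83.5 CPM in WT Tconv and 5.28 and 5.84 CPM in Teff (-3.26 ± 0.38, edgeR adjusted p 3.55e-05). Acvrl1, a receptor of the TGF-beta superfamily, was at 42.98 and 55.1 and 3.13 and 2.28 CPM (-2.92 ± 0.53). Markers of other cells were highest in Teff, with a B cell sum of 535 and 361 CPM, a myeloid sum of 655 and 282 CPM and a CD8 and natural killer sum of 857 and 664 CPM. In eTreg these sums were 171 and 169, 202 and 206, and 130 and 125 CPM, and their part in the differences was not tested.

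**Figure D4:**
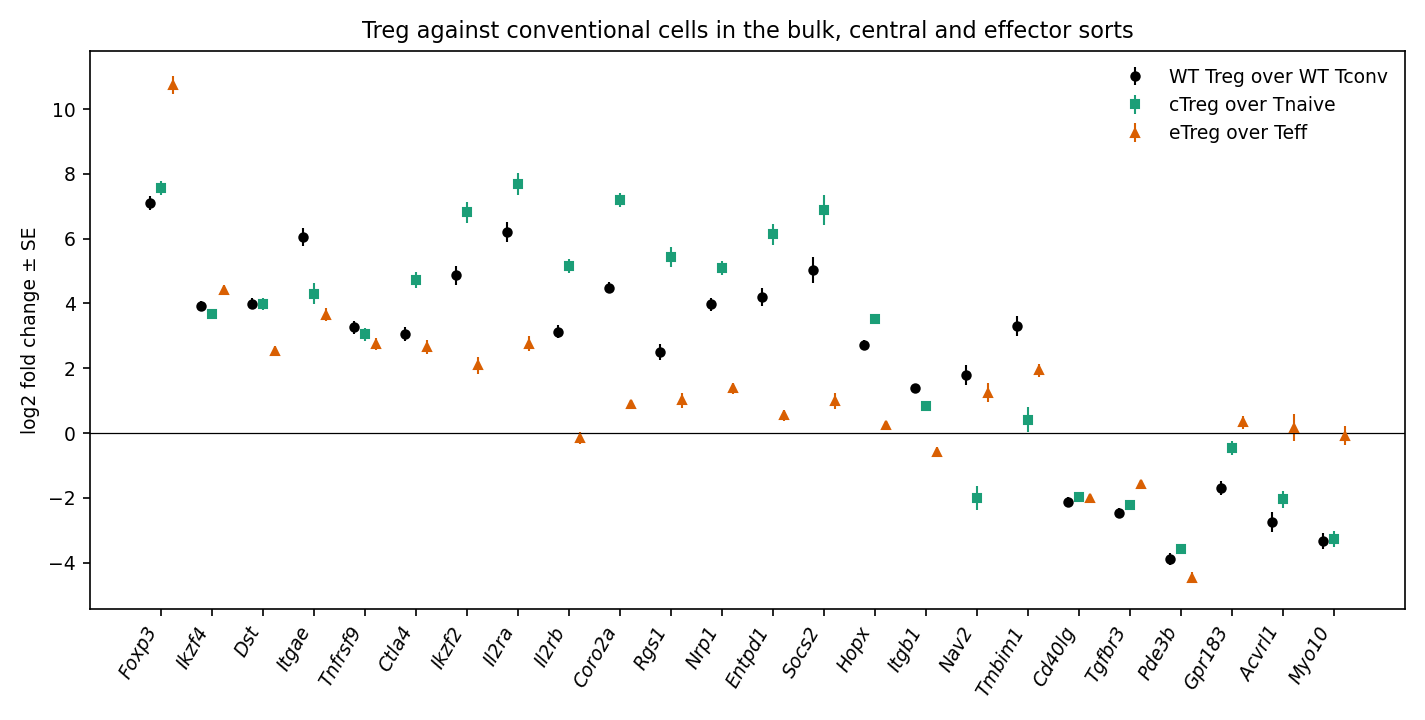
The log2 fold change ± SE of 24 genes in WT Treg over WT Tconv (black circles), cTreg over Tnaive (green squares) and eTreg over Teff (orange triangles). Ikzf4, Cd40lg and Pde3b have similar values in all 3 comparisons, Il2rb is highest in the resting sort and near 0 in the effector sort, and Nav2 and Itgb1 lie on both sides of 0.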

How the data were processed

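RNA was poly(A)-selected, and libraries were made with either of 2 NEBNext kits, per the labels' protocols, which do not say which library used which kit. The aligner STAR 2.6.1c and the genome build mm10 are named, per the submitters' processing notes. How reads were assigned to genes, and whether strand was used, was not given in the sources used here, so antisense and overlapping genes are uncertain. The deposited values are raw read counts per gene, summarised by the authors for 24411 gene symbols. A further 4 columns matched no sample's labels and were not used.

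The counts of 26 libraries in 13 groups of 2 were fitted in R 4.3.3 with edgeR 4.0.16 (filterByExpr, TMM scaling, robust quasi-likelihood F test, group means only), with limma 3.58.1. The filter kept 12227 genes and removed 12184, and in every library the kept genes took 99.9% of reads or more. Residual degrees of freedom were 13. Contrasts were WT Treg against WT Tconv, the same in each sort, and the differences between them. P-values were adjusted by Benjamini-Hochberg over all tested genes. SE was taken as the absolute log2 change over the root of F. A group with 0 reads was set to a floor of 3 counts over the group, and a group with 1 to 3 reads is given as a count ratio with an exact interval; these cover counting error only. Gene positions are from GENCODE M21 and promoters from RefSeq (GRCm38.p6). The fit was tested on simulated data. Alternatives were DESeq2 1.42.0, other size factors, no filter, fewer libraries, a replicate block, a test against 1.5-fold, and leaving out each library.

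Genes named with values are Foxp3, the 12 largest called changes in each direction (at least 5 CPM, groups apart) and the 8 called genes with the highest mean. To these were added up to 6 called genes by p and 4 uncalled genes by level from each list, the 8 largest differences in each direction, and the 6 smallest p called in both sorts or in neither. A few genes that the rule names or the lists count are not reported here by name. Members and lists were chosen with earlier results of these data known.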

Additional observations from a re-analysis of the deposited data

Results flagged for a closer look

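Results are given here where the bulk change differed from that of a sort by the edgeR test of the difference itself, with the log2 difference of the 2 changes. Against the resting sort 21 genes were called. Among those named, the bulk value was higher in Nav2 (3.79), Maged1 (3.44), Tmbim1 (2.88), Gsg2 (2.09), S100a11 (1.92), Sgk1 (1.77), Ptgfrn (1.64) and Cldnd1 (1.02). It was lower in Kcnk5 (-4.06), Nkg7 (-3.25), Rgs1 (-2.95), Coro2a (-2.71), Lif (-2.57), Il2rb (-2.04), Ggt1 (-1.74) and Ctla4 (-1.67). Of these, Coro2a, Il2rb, Maged1, Nav2 and Rgs1 were called whichever library was left out, and each other gene lost its call without at least 1 library. Ctla4, for example, lost it without WT Tconv library 2 (edgeR adjusted p 0.107) or either cTreg library (0.127 and 0.0969). It also lost it without either Tnaive library (0.157 and 0.195) or WT Treg library 1 (0.0879).

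Against the effector sort 639 genes were called. Among those named, the bulk value was higher in Tifab (9.44), Aqp9 (9.42), Peli2 (8.15), Syk (8.09), Nrp2 (7.99), Sulf2 (6.78) and Sort1 (6.52). It was lower in Foxp3 (-3.63), Nacc2 (-3.28), Myo10 (-3.26), Acvrl1 (-2.92), Ppp1r3fos (-2.76), Zscan10 (-2.72), Epb4.1l1 (-2.66) and Kctd12b (-2.64). In Kcnk5, Tifab, Aqp9, Peli2, Nrp2, Sulf2 and Sort1 at least 1 group had 3 or fewer reads, so their fitted differences depend on the prior count and are no measure of size. Foxp3 was at the level of 3 reads in each Teff library, so the size of its difference is uncertain too. Syk, a kinase of B and myeloid cells, was at 6.53 and 2.81 CPM in WT Treg, 0.884 and 0.321 in WT Tconv, 0.573 and 0.48 in eTreg and 27.8 and 9.31 in Teff. The marker sums of those cells were also highest in Teff, and their part in this value was not tested. Ppp1r3fos, Sort1, Sulf2, Tifab and Zscan10 lost the call without at least 1 library, and Ppp1r3fos is an antisense transcript whose reads may belong to its partner.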

How the results depend on the processing

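The 2292 bulk calls fell to 548 with the 4 libraries alone, to 567 with those and the BATFKO Treg libraries, and to 954 against 1.5-fold (79.2% higher). Leaving out a library gave 1916 to 2081, with 1613 to 1687 of the calls kept. For cTreg against Tnaive the 1492 calls became 2866 with their own libraries and 993 to 1043 with a library left out, and for eTreg against Teff the 1892 became 1168 to 1467. The 21 differences from the resting sort became 55 without the filter, 91 with DESeq2, 1 with their own libraries and 8 to 25 with a library left out. The 639 differences from the effector sort became 202 with their own libraries and 411 to 659 with a library left out. The causes were not tested. No named result changed sign while called. Of the named genes, 56 lost the bulk call with the 4 libraries alone, 40 against 1.5-fold, 12 to 17 per library left out, 7 without the filter and 0 with DESeq2. The call was gained by 0, 0, 3 to 6, 1 and 4 named genes in these fits.

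Replicate numbers are shared between groups, but the labels do not say that a number marks a shared animal or day. Deviations of same-numbered libraries correlated across 12227 genes at 0.709 in WT Treg and WT Tconv. The correlation with BATFKO Treg was 0.681 for WT Treg and 0.645 for WT Tconv. It was 0.188 in cTreg and Tnaive and 0.301 in eTreg and Teff. With the replicate block the bulk calls were 2812, which kept 2290 of the 2292, with the 4 libraries and block 4621 (52.1% higher, 2169 kept), and with the 6 libraries and block 3656 (54.8% higher, 2164 kept). The fall with these libraries alone was not seen in the fits with the block. The block fit of the 4 libraries has few residual degrees of freedom. Of the named genes 0 lost and 7 gained the call with the block (Ccl5, Foxo1, Il4ra, Jak3, Lat, Mcm4 and Tnip1), and 0 lost and 35 gained it with the 4 libraries and block. The block gave 38 and 989 calls for the differences from the resting and effector sorts.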
